A study of Saccharomyces cerevisiae with 15 samples.

Results

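The comparison described here is the earliest step of a depletion time course in budding yeast, cells treated with 5-Ph-IAA for 0.5 h set against cells taken before treatment. It covers 6 of the 15 libraries of the study, 3 untreated (0 h) and 3 at 0.5 h, chosen by their labels, and the 6069 of 7127 genes in the deposited count table that passed a filter on low counts. Every library came from Saccharomyces cerevisiae of strain background W303 with genotype ZPR1-AID, in which the C terminus of Zpr1 is fused to an auxin-inducible degron, grown to mid-log phase and frozen. Polyadenylated RNA was sequenced. The other groups, of 3 libraries each, were ZPR1-AID cells at 1.5 h and 3 h of 5-Ph-IAA and ZPR1-AID cells at 3 h of the solvent DMSO. All 5 groups thus carried the tagged allele. There was no DMSO group at 0.5 h and no group of untagged cells given 5-Ph-IAA, so loss of Zpr1, the compound itself, its solvent and 0.5 h of further culture cannot be told apart. The labels do not say whether the 3 libraries of a group were separate cultures, and p-values therefore measure only the spread between libraries, which may be technical.

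Zpr1 is a zinc finger chaperone that helps newly made eEF1A, the elongation factor that brings aminoacyl-tRNA to the ribosome, to fold. With a degron on the protein, an auxin such as 5-Ph-IAA leads to its ubiquitination and destruction by the proteasome. Misfolded new proteins occupy Hsp70, which otherwise holds back the heat shock factor Hsf1, and freed Hsf1 switches on cytosolic and mitochondrial chaperone genes through heat shock elements. Rpn4, a short-lived activator that the proteasome itself degrades, drives the genes of proteasome subunits through a promoter sequence known as the proteasome-associated control element. Msn2 and Msn4 drive a separate general stress programme. Aft1 and Aft2 switch on iron uptake when iron is short, and Ste12 and Mcm1 keep mating genes expressed.

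The untreated libraries held 7892004, 9010837 and 9233290 counts and those at 0.5 h held 16599457, 12892710 and 6985793. Spearman correlations between libraries of a group were 0.987 to 0.992 untreated and 0.987 to 0.995 at 0.5 h. Mitochondrially encoded genes took 0.0431% to 0.0853% of the counts of the untreated libraries and 0.0567% and 0.0581% of those of 0.5 h libraries 1 and 2, but 0.324% of those of 0.5 h library 3, which was also the shallowest of the 6. Levels are given below as CPM, the count of a gene relative to all counts of its library after edgeR's TMM scaling, in library order 1, 2 and 3. Changes are log2 differences, 0.5 h minus untreated, from edgeR's quasi-likelihood test on all 15 libraries, with Benjamini-Hochberg adjustment over the 6069 genes. A gene passed at an adjusted p under 0.05, and calls and counts are those of this fit unless another is named.

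The targeted gene was read first. ZPR1 (YGR211W, chromosome VII, 915241 to 916701 of R64) had 121, 186 and 152 CPM in untreated cells and 298, 294 and 274 CPM at 0.5 h. Every library at 0.5 h was above every untreated library, but the change of 0.91 log2 (SE 0.30, adjusted p = 0.0864) did not pass. It passed when the 6 libraries were fitted alone (0.95 log2, adjusted p = 0.000917). A degron acts on protein, so this mRNA does not check the depletion. TEF1 and TEF2 encode eEF1A from near-identical sequences, between which reads may have been split. TEF1 changed by -0.26 log2 (SE 0.11, adjusted p = 0.2) and TEF2 by 0.18 log2 (SE 0.19, adjusted p = 0.669), neither past the threshold.

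After 0.5 h, 373 genes had changed, 6.15% of those tested. Of these 204 were higher (3.36%) and 169 lower (2.78%). The rises were larger than the falls: 57 genes rose and 26 fell by at least 1 on the log2 scale, and 18 rose but 1 fell at least 4-fold. Chaperones and their partners led the rises, with proteasome subunits behind them at smaller size. Genes of iron uptake and of mating led the falls. Fitted on the 6 libraries alone, 568 of 5942 genes passed (9.56%), and 355 of the 373 were among them. Scaling on total counts alone turned the balance of the calls, to 167 higher and 240 lower, so that 41% rather than 54.7% of called genes were higher. With 1 library left out the count was 229, 274 and 187 for untreated libraries 1, 2 and 3 and 238, 178 and 224 for 0.5 h libraries 1, 2 and 3, and 149 of the 373 passed on leaving out any 1 of the 6.

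**Figure D1:**
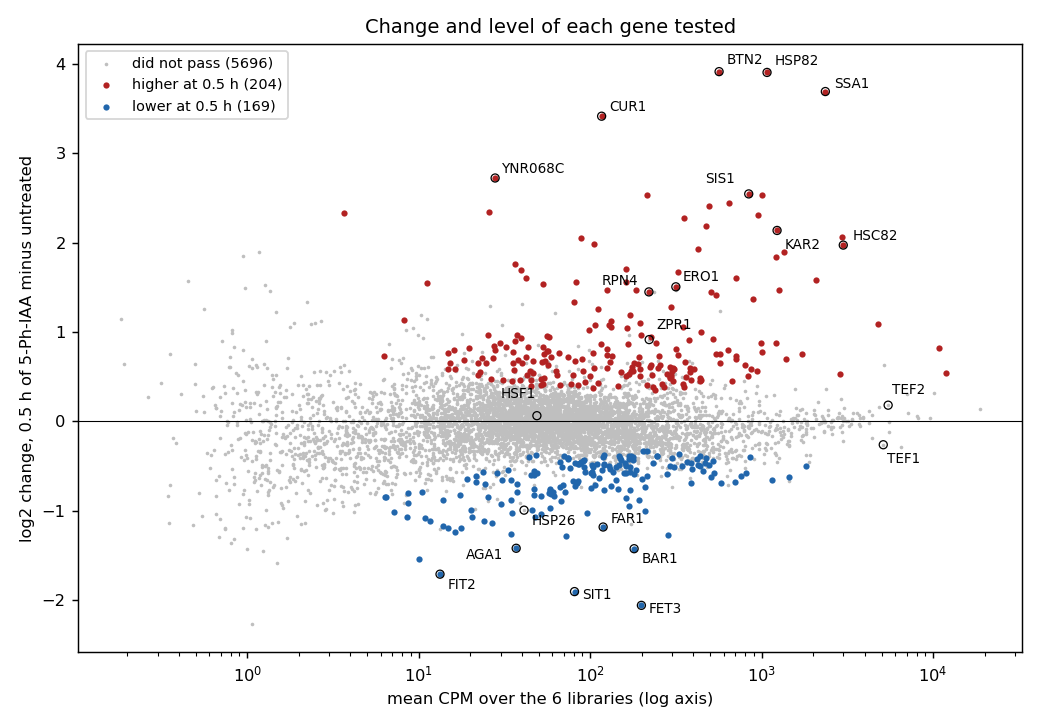
Log2 change at 0.5 h of 5-Ph-IAA against untreated (vertical) by mean CPM over the 6 libraries (horizontal, log axis) for 6069 genes, coloured where the adjusted p was under 0.05 and ringed where named. The rises reach higher than the falls reach down, and BTN2, HSP82 and SSA1 stand at the top while FET3 and SIT1 stand at the bottom of the called genes.

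The 3 largest rises were a protein-sorting factor, an Hsp90 and an Hsp70. BTN2 (YGR142W, chromosome VII, 772454 to 773686), whose product takes misfolded proteins to storage sites, had 59.8, 74.8 and 76.1 CPM untreated and 934, 1048 and 1195 CPM at 0.5 h. HSP82 (YPL240C, chromosome XVI, 96496 to 98625), the inducible gene of Hsp90, went from 118, 134 and 152 CPM to 1906, 1994 and 2144 CPM. SSA1 (YAL005C, chromosome I, 139503 to 141431), a cytosolic Hsp70, went from 313, 313 and 388 CPM to 4622, 4048 and 4429 CPM. For each of these genes the lowest library at 0.5 h was several times above the highest untreated one, and the groups did not overlap. Lack of overlap was a condition for the 15 largest rises and 15 largest falls, here and below. For those genes it is therefore no further support, and its share over all genes is not given. The fitted changes were 3.91 log2 (SE 0.24, adjusted p = 2.07e-08), 3.90 log2 (SE 0.16, adjusted p = 6.87e-11) and 3.69 log2 (SE 0.13, adjusted p = 1.22e-11), or 15.1-fold, 15-fold and 12.9-fold. SSA1 is near-identical in sequence to SSA2, so their separate levels are less certain than their joint rise.

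Chaperones of the cytosol, the aggregate-sorting factors and the mitochondrial chaperones formed 5 lists of 54 genes in all. Of these 25 rose and none fell, against 3.36% of all genes higher and 2.78% lower. In each of the 25 the 3 libraries at 0.5 h stood above the 3 untreated ones. That separation is no further support, since the 25 were chosen by their call, and its share over all genes is not given. Their median change was 0.38 log2, beside -0.03 over all genes. Together they took 1.56%, 1.61% and 1.76% of the counts in the untreated libraries and 4.38%, 4.36% and 4.42% at 0.5 h, a narrow band in each group with a wide gap between. On leaving out any 1 of the 6 libraries the rises still numbered 6 in the Hsp90, 6 in the Hsp70, 3 in the J-domain and 4 in the aggregate-sorting list, and 6 or 7 in the mitochondrial list.

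In the Hsp90 list 6 of 14 genes rose. The constitutive Hsp90 gene HSC82 had 955, 1097 and 1595 CPM untreated and 4813, 4547 and 4944 CPM at 0.5 h, a change of 1.97 log2 (SE 0.15, adjusted p = 2.82e-07). STI1, which passes clients from Hsp70 to Hsp90, went from 251, 295 and 339 CPM to 1810, 1609 and 1702 CPM (2.53 log2, adjusted p = 1.5e-06). CPR6, a prolyl isomerase bound to Hsp90, went from 149, 149 and 169 CPM to 888, 775 and 815 CPM (2.41 log2, adjusted p = 2.07e-08). In all of these the groups were far apart, and HSC82 had the widest untreated spread, with library 3 highest. AHA1, which stimulates the ATPase of Hsp90, rose by 2.18 log2 (adjusted p = 7.41e-08), and its smaller relative HCH1 by 1.41 log2 (adjusted p = 8.43e-07). The other 8 members lay between -0.36 log2 for the phosphatase PPT1 and 0.31 for the co-chaperone SBA1 and did not pass, among them the kinase co-chaperone CDC37 at 0.24.

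Of the 11 Hsp70 and exchange factor genes 6 rose, and the 5 that did not were the ribosome-associated SSB1 (0.02), SSB2 (-0.14) and SSZ1 (-0.13), SNL1 (0.09) and SSA3 (-0.01). SSA2 went from 820.5, 971 and 1620 CPM to 4980, 4321 and 4964 CPM (2.06 log2, adjusted p = 1.17e-05), and SSA4, the most strictly inducible Hsp70, from 105, 81.3 and 43.2 CPM to 257, 262 and 229 CPM (1.71 log2, adjusted p = 0.000234). Neither pair of groups overlapped. The exchange factor FES1, which releases clients from Hsp70, went from 166, 182 and 179 CPM to 683, 657 and 670.5 CPM (1.93 log2, adjusted p = 1.42e-06). SSE1, the main Hsp110, rose by 1.09 log2 (adjusted p = 0.00263), and SSE2 by 1.33 log2 (adjusted p = 3.11e-05). Among 12 J-domain proteins, the partners that set Hsp70 to work, 3 rose, which were SIS1, APJ1 and YDJ1. SIS1, an essential J-domain protein that takes part in the control of Hsf1, went from 209.5, 253 and 275 CPM to 1540, 1377 and 1390 CPM (2.55 log2, adjusted p = 1.42e-06). APJ1 rose by 2.05 log2 (adjusted p = 5.79e-07) and YDJ1 by 1.58 log2 (adjusted p = 6.67e-05), while the ribosome-bound ZUO1 stood at -0.31 and did not pass. The 16 genes of the CCT chaperonin and prefoldin, which fold actin and tubulin, held no call in the 15-library edgeR fit or with DESeq2, with a median of 0.07 log2, and 2 were lower at an unadjusted p under 0.05. Fitted without both 3 h groups, edgeR called 1 of them higher.

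The sorting and disaggregation list divided within itself. CUR1, the relative of BTN2, went from 16.7, 20.8 and 22.4 CPM to 215, 212 and 212 CPM (3.41 log2, adjusted p = 1.22e-11). HSP104, the disaggregase that pulls proteins out of aggregates, went from 232, 238 and 136 CPM to 1136, 1174 and 979 CPM (2.44 log2, adjusted p = 1.71e-07). HSP42, a small heat shock protein that gathers aggregates, went from 38.7, 60.5 and 27.6 CPM to 156, 194 and 152 CPM (1.99 log2, adjusted p = 0.00072). All 3 were higher in every library at 0.5 h. The other small heat shock gene, HSP26, had 64.2, 79.2 and 21.6 CPM untreated and 33.5, 32.2 and 16.2 CPM at 0.5 h, with overlapping groups, and did not pass (-1.0 log2, adjusted p = 0.135). HSP26 did pass as lower without untreated library 3, its lowest untreated library (-1.37 log2, adjusted p = 0.0118).

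Chaperones of the mitochondrial matrix rose with those of the cytosol. HSP78, a mitochondrial relative of HSP104, went from 73.8, 69.2 and 47.3 CPM to 359, 392 and 354 CPM (2.54 log2, adjusted p = 1.61e-08). HSP60, the matrix chaperonin, went from 524, 608 and 595 CPM to 2213, 2075 and 2136 CPM (1.90 log2, adjusted p = 8.9e-05), and its lid HSP10 rose by 1.61 log2 (adjusted p = 1.33e-07). MDJ1, the matrix J-domain protein, rose by 2.27 log2 (adjusted p = 1.61e-08), SSC1, the matrix Hsp70, by 1.83 log2 (adjusted p = 1.06e-05), and the protease PIM1 by 0.58 log2 (adjusted p = 0.00231). The matrix exchange factor MGE1 (0.12) and the inner membrane protease YME1 (0.46) did not pass. Of 19 genes of folding in the endoplasmic reticulum and of the unfolded protein response, 2 rose, against 3.36% of all genes. KAR2, the Hsp70 of that compartment, went from 436, 395 and 537 CPM to 2078, 1927 and 2009 CPM (2.14 log2, adjusted p = 7.41e-08), and ERO1, which feeds oxidizing power to disulfide formation, from 179, 157 and 158 CPM to 499, 472 and 430.2 CPM (1.51 log2, adjusted p = 2.78e-06). The other 17 lay between -0.14 log2 for the sensor IRE1 and 0.27 for the disulfide isomerase PDI1, and HAC1, the regulator of that response, stood at -0.10.

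**Figure D2:**
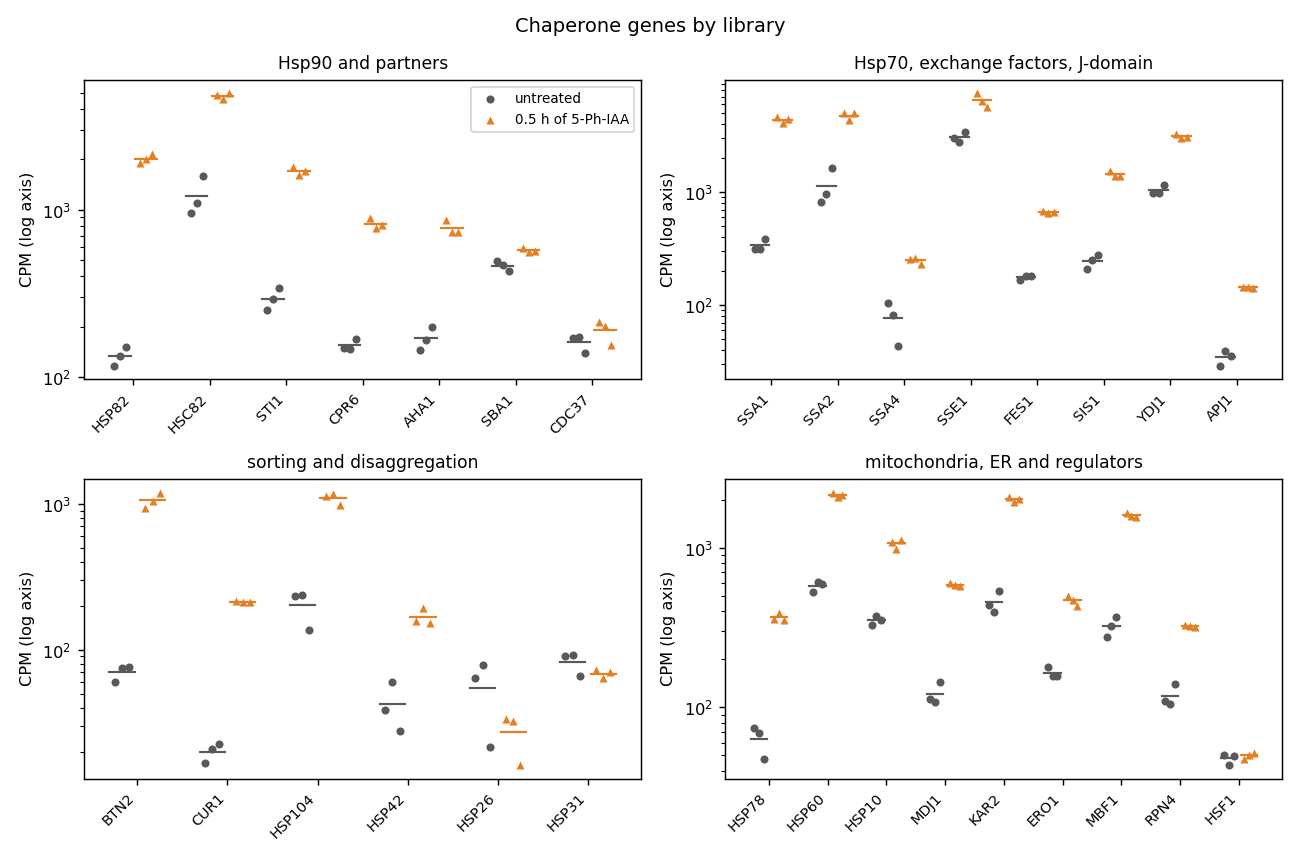
CPM (log axis) of chaperone genes, ER genes and regulators in the 3 untreated libraries (circles) and the 3 libraries at 0.5 h of 5-Ph-IAA (triangles), with lines at the group means. The groups are apart for the called genes, while CDC37, HSP26 and HSF1 overlap or nearly overlap.

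Promoters were searched for heat shock elements, blocks of GAA and TTC that alternate with gaps of 2 bases, on both strands of the 300 bases from 250 before to 50 after the start codon in RefSeq R64. At least 3 such blocks in a row stood in 47 of 5988 promoters (0.785%), in 13 of the 204 higher genes (6.37%) and in none of the 168 lower genes with a promoter. Of the 45 tested genes that carry 3 blocks, 13 rose and none fell. Of these, 8 were in the 5 chaperone lists, where all 8 carriers rose, and the other 5 were KAR2, RPN4, LST8, APA1 and OPI10. The carriers that did not pass reached from -0.24 log2 for RPL36B and -0.24 for FRA1 up to 0.91 for ZPR1. Most of the higher genes lacked 3 blocks, which stood in 8 of the 25 chaperone genes that rose (32%) and in 3 of the 15 largest rises (20%). At least 2 blocks stood in 22.6% of all promoters, 29.4% of the higher and 23.8% of the lower ones, and in 68% of those 25 chaperone genes. The following windows of 60 bases, 5′ to 3′ on the strand of the gene, show the arrangement upstream of 4 genes with large rises, with the blocks and their gaps in capitals.
HSP78 (chrIV:974434-974493, minus strand): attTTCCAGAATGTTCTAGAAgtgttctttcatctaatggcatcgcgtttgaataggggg
STI1 (chrXV:380803-380862, plus strand): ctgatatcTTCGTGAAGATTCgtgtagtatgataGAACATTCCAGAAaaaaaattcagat
KAR2 (chrX:381101-381160, plus strand): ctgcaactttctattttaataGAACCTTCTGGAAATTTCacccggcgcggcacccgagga
SSA2 (chrXII:97676-97735, minus strand): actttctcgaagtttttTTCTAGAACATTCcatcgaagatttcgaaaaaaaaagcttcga

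Of 25 genes for stress and nutrient regulators, 4 rose and 1 fell, beside 3.36% of all genes higher and 2.78% lower. MBF1, a coactivator of the amino acid regulator Gcn4, went from 274, 321 and 367 CPM to 1644, 1572 and 1560 CPM (2.31 log2, adjusted p = 1.61e-08). RPN4 went from 110.0, 104 and 139.7 CPM to 327, 321 and 318 CPM (1.45 log2, adjusted p = 2.94e-06), again without overlap. HSF1 itself, the heat shock factor, had 50.5, 43.5 and 49.5 CPM untreated and 47.7, 50.5 and 51.7 CPM at 0.5 h and did not pass (0.06 log2, adjusted p = 0.84). YAP1, the oxidative stress regulator, rose by 0.52 log2 (adjusted p = 0.0108), and that call ended without untreated library 1 (adjusted p = 0.0586). PDR1, a regulator of drug pumps, was called higher at 0.41 log2 (adjusted p = 0.0167), but the call ended with total counts (adjusted p = 0.0852) and without untreated library 2 (0.0633), untreated library 3 (0.0744), 0.5 h library 2 (0.0954) or 0.5 h library 3 (0.06). CIN5, a relative of YAP1, was called lower at -0.82 log2 (adjusted p = 0.0346), and that call ended without untreated library 1 (0.0987), 2 (0.105) or 3 (0.0644) or 0.5 h library 1 (0.115) or 3 (0.147), all adjusted p. GCN4 (-0.14), MSN2 (0.10) and MSN4 (0.06) did not pass.

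Proteasome genes rose together, by less than 1 on the log2 scale. Over all genes 3.36% were higher and the median was -0.03. In the core particle, the barrel that cuts proteins, 11 of 14 genes rose and all 14 were positive, with a median of 0.56. In the regulatory particle, the cap that unfolds them, 15 of 19 rose and all 19 were positive, with a median of 0.52. PRE1, a core subunit, had 198, 194 and 177 CPM untreated and 300.0, 312 and 333 CPM at 0.5 h (0.74 log2, adjusted p = 0.00337), and RPT1, an ATPase of the cap, 296, 269 and 262 CPM and 488, 449 and 367 CPM (0.66 log2, adjusted p = 0.00323). Neither pair of groups overlapped. PRE3 rose by 0.74 log2 (adjusted p = 0.000821), PRE2 by 0.58 log2 (adjusted p = 0.00353) and RPN6 by 0.52 log2 (adjusted p = 0.0062). SCL1 (0.68, adjusted p = 0.0616) and PRE8 (0.65, adjusted p = 0.0974) did not pass. Of 12 assembly and binding factors only ECM29, which joins core and cap, rose (0.97 log2, adjusted p = 0.0043). The share of all counts in these 45 genes was 0.896%, 0.863% and 0.833% untreated and 1.18%, 1.22% and 1.14% at 0.5 h, without overlap. The number of calls depended on every library: the core particle held 3, 4 and 3 on leaving out untreated library 1, 2 or 3, and 3, 3 and 8 on leaving out 0.5 h library 1, 2 or 3, and the regulatory particle 4, 7 and 3 on leaving out untreated library 1, 2 or 3, and 4, 4 and 9 on leaving out 0.5 h library 1, 2 or 3. In the core and regulatory particle, 14 and 17 rose with DESeq2 and 14 and 18 with the 6 libraries alone. SCL1 and PRE8 thus passed in both of these fits. With total counts 8 and 12 rose.

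The proteasome-associated control element, GGTGGCAAA on either strand, stood in 71 of 5988 promoters (1.19%), in 36 of the 204 higher genes (17.6%) and in none of the 168 lower ones. Of the 70 tested carriers 36 rose, none fell, and the median change was 0.49 log2. Within the proteasome lists 23 of 28 carriers rose. Outside those lists 13 of 42 carriers rose, with a median of 0.30, and the 13 included SGT2 (1.47 log2, adjusted p = 8.98e-07), which hands tail-anchored proteins to the GET pathway, CUZ1 (0.94 log2, adjusted p = 6.37e-05), a zinc finger protein that binds Cdc48, UBI4 (0.91 log2, adjusted p = 0.000444), CDC48 (0.58 log2, adjusted p = 0.00374), UBA1, the ubiquitin-activating enzyme (0.59 log2, adjusted p = 0.00574), PIM1 and YAP1. Windows of 60 bases around the element are given for 4 carriers that rose, with the element, on either strand, in capitals.
ECM29 (chrVIII:39927-39986, plus strand): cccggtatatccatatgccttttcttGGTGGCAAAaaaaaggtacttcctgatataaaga
UBI4 (chrXII:65334-65393, minus strand): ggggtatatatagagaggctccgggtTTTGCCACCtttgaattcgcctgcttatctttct
PRE1 (chrV:177667-177726, plus strand): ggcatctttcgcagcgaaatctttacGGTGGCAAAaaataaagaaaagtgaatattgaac
RPT1 (chrXI:174032-174091, plus strand): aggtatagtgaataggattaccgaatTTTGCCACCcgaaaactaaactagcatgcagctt

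Of 19 genes for ubiquitin, its ligases and shuttles, 4 rose, against 3.36% of all genes. UBI4, the polyubiquitin gene, went from 287, 267 and 233 CPM to 516, 494 and 469.5 CPM, and UBC4, a conjugating enzyme for misfolded proteins, from 360.5, 360.1 and 367 CPM to 728, 688 and 637 CPM (0.92 log2, adjusted p = 0.00268). Both were higher in every library at 0.5 h. HUL5, a ligase that extends ubiquitin chains, rose by 0.47 log2 (adjusted p = 0.00716), while the call of the shuttle DDI1 (0.72 log2, adjusted p = 0.0365) ended without any 1 of untreated library 1 (adjusted p = 0.144), 2 (0.0522) and 3 (0.13) and 0.5 h library 1 (0.144) and 2 (0.111). Cdc48 is the ATPase that extracts ubiquitinated proteins, and 4 of 11 genes of its list rose. NPL4 rose by 0.79 log2 (adjusted p = 0.000378), UFD1 by 0.94 log2 (adjusted p = 0.00996) and CDC48 by 0.58, and UBX4 by 0.40 log2 (adjusted p = 0.0452). The count was 2 without untreated library 3, where UFD1 (adjusted p = 0.0539) and UBX4 (0.148) did not pass, and the call of UBX4 ended without any 1 of the 6 libraries (0.127 and 0.106 without untreated library 1 or 2, 0.119, 0.137 and 0.137 without 0.5 h library 1, 2 or 3) and with total counts (0.115). None of the 12 genes of ribosome quality control and the nascent chain complex passed in the 15-library edgeR fit or with DESeq2, from -0.26 log2 for HEL2 to 0.10 for RQC2, and 1 was lower at an unadjusted p under 0.05.

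Few genes of the translation machinery passed at 0.5 h. None of the 10 genes of eEF1A handling and eEF1B, ZPR1 among them, passed in the 15-library edgeR fit or with DESeq2. With an unadjusted p under 0.05, 2 were higher and 1 lower, and the same counts passed the adjusted threshold when the 6 libraries were fitted alone. None of 10 other elongation and termination factors, 25 initiation factors or 20 cytosolic aminoacyl-tRNA synthetases passed in the 15-library edgeR fit, and 2, 3 and 1 of them were lower at an unadjusted p under 0.05. DESeq2 called 1 initiation factor lower and none of the others, and edgeR with total counts called 1 initiation factor and 1 synthetase lower. Of the 25 initiation factors 24 were negative, with a median of -0.18. Of 138 cytosolic ribosomal protein genes, 1 rose and none fell, with a median of -0.03 and 25.8% to 27.8% of the counts in all 6 libraries. That gene, RPS9A (0.66 log2, adjusted p = 0.0111), did not pass without untreated library 3 (adjusted p = 0.0679). None of 66 mitochondrial ribosomal protein genes passed in the 15-library edgeR fit or with DESeq2, with 3 higher at an unadjusted p under 0.05. In edgeR, 1 was called higher with the 6 libraries alone and 2 without both 3 h groups.

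Ribosome biogenesis genes, which make and assemble ribosomal RNA, had small negative values. Of 73 genes 70 were negative, with a median of -0.29, and 5 fell, where 2.78% of all genes were lower. RRP5, a processing factor, had 996, 861 and 1038 CPM untreated and 611, 658 and 667 CPM at 0.5 h (-0.58 log2, adjusted p = 0.00535), without overlap. The number of falls moved widely, to 15 with DESeq2, 15 with total counts and 13 with the 6 libraries alone, and to 1, 2 and 1 on leaving out untreated library 1, 2 or 3, and 2, 1 and 1 on leaving out 0.5 h library 1, 2 or 3. For RNA polymerases I and III, 17 of 18 genes were negative, with a median of -0.32, and 3 fell. RPC53, a subunit of polymerase III, went from 179.5, 194 and 194 CPM to 139, 122 and 118 CPM (-0.58 log2, adjusted p = 0.00986), a call that ended without 0.5 h library 2 (adjusted p = 0.0541) or 3 (0.0511). The number of falls in that list was 7 with DESeq2, 6 with total counts and 5 with the 6 libraries alone, and leaving out 0.5 h library 2 or 3 left 1. The ribosomal RNA processing element core AAAATTTT, which stood in 9.02% of all promoters, stood in 24.4% of the lower and 4.41% of the higher ones. The polymerase A and C box core GATGAG stood in 20.4% of all, 28% of the lower and 13.2% of the higher promoters. Of the 526 tested carriers of AAAATTTT, 41 fell and 9 rose, and 34 of the falls were outside the lists of ribosome biogenesis and RNA polymerases. Those lists are not complete, and the 34 include further ribosome assembly factors. Examples are RSA1 (-0.60 log2, adjusted p = 0.00285), HCA4 (-0.50 log2, adjusted p = 0.00986) and DBP10 (-0.53 log2, adjusted p = 0.0108). The calls of HCA4 and DBP10 ended without untreated library 3 (adjusted p = 0.0687 and 0.0744).

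Other stress programmes showed few rises. Of 23 general stress genes 1 rose and 4 fell, beside 3.36% of all genes higher and 2.78% lower, and the median was -0.21. HSP12, an abundant target of Msn2 and Msn4, had 742, 739.9 and 520.3 CPM untreated and 708, 549.9 and 603 CPM at 0.5 h, with overlap (-0.11 log2, adjusted p = 0.872). SPI1, a cell wall protein of stress and stationary phase, fell by 0.99 log2 (adjusted p = 0.00457), and this was the fall that passed without any 1 of the 6 libraries. The lower calls numbered 1, 1 and 4 on leaving out untreated library 1, 2 or 3, and 3, 1 and 1 on leaving out 0.5 h library 1, 2 or 3, and the rise of the aldose reductase GRE3 (0.76 log2, adjusted p = 0.0121) ended without untreated library 1 (0.0568) or 3 (0.0719), both adjusted p. The stress response element AGGGG stood in 21.6% of all, 27.9% of the higher and 16.7% of the lower promoters. Of its 1247 tested carriers 57 rose and 28 fell, with a median of -0.01. None of 14 targets of the drug resistance regulators Pdr1 and Pdr3 passed with edgeR or DESeq2, and none had an unadjusted p under 0.05, with a median of 0.00, among them the pump PDR5 (-0.29). None of 20 genes of trehalose and glycogen passed in the 15-library edgeR fit or with DESeq2, with 1 higher and 2 lower at an unadjusted p under 0.05. Of 15 oxidative stress genes, the peroxiredoxin AHP1 rose (0.88 log2, adjusted p = 0.000444), and the lower call of OYE3 (-0.65 log2, adjusted p = 0.0168) ended without untreated library 1 (0.08), 0.5 h library 2 (0.0662) or 3 (0.0727). None of 9 hypoxic genes passed in the 15-library edgeR fit or with DESeq2, with 1 higher and 2 lower at an unadjusted p under 0.05.

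Several metabolic genes rose, where 3.36% of all genes were higher. In the phospholipid list 5 of 15 rose. CHO2, which methylates phosphatidylethanolamine, went from 193, 149.6 and 123 CPM to 507, 470.0 and 505 CPM (1.67 log2, adjusted p = 5.14e-06), and CHO1, the phosphatidylserine synthase, rose by 0.88 log2 (adjusted p = 0.0066). INO2 (0.84 log2, adjusted p = 0.012), the activator of these genes, CKI1 (0.80 log2, adjusted p = 0.0156), the choline kinase, and ITR1 (0.76 log2, adjusted p = 0.00716), the inositol transporter, completed the 5. The count was 3 without untreated library 3, where INO2 (adjusted p = 0.0558) and CKI1 (0.05002) did not pass. INO2 also did not pass without 0.5 h library 3 (0.0601), nor CKI1 without 0.5 h library 2 (0.0584).

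Among methionine genes, SAM2, which makes S-adenosylmethionine, went from 107, 137 and 50.6 CPM to 261, 279 and 272 CPM (1.47 log2, adjusted p = 0.00977), with untreated library 3 well below the others. MET17, which makes homocysteine, rose by 1.08 log2 (adjusted p = 0.00125), and 3 of 23 genes of that list rose in all. Of 42 amino acid synthesis genes 2 passed as higher, close to the 3.36% of all genes. That number was 0 without untreated library 3 and 1 without any other single library. It was 4 with DESeq2, 6 with the 6 libraries alone and 9 without both 3 h groups. In the nitrogen list the amino acid permease GAP1 (0.75 log2, adjusted p = 0.000821) and the ammonium transporter MEP1 (0.61 log2, adjusted p = 0.00333) rose, with 3 of 14 in all. The autophagy gene ATG41 rose from 35.1, 58.6 and 31.9 CPM to 116, 118 and 139 CPM (1.56 log2, adjusted p = 0.000209). It was the only call among 36 autophagy genes, close to the 3.36% of all genes higher.

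In glycolysis 7 of 20 genes rose, against 3.36% of all genes. The enolase ENO1 went from 257, 359 and 274 CPM to 625, 628 and 529 CPM (1.0 log2, adjusted p = 0.000317), and ENO2, the other enolase, rose by 0.82 log2 (adjusted p = 0.00237). The hexokinase HXK2, the glyceraldehyde phosphate dehydrogenases TDH2 and TDH3, the triose isomerase TPI1 and the kinase PGK1 were the others. The near-identical copies among them may share reads. PGK1 had 402, 607 and 479.8 CPM untreated and 1252, 1317 and 1288 CPM at 0.5 h (1.37 log2, adjusted p = 0.0292), and did not pass with robust estimation (adjusted p = 0.0711) or without untreated library 1 (0.123) or 3 (0.114) or 0.5 h library 1 (0.0688), 2 (0.084) or 3 (0.0719). The calls of HXK2, TDH2, TDH3 and TPI1 also ended on leaving out some of the libraries, and the rises numbered 3, 7 and 4 on leaving out untreated library 1, 2 or 3, and 3, 4 and 3 on leaving out 0.5 h library 1, 2 or 3. TDH1 was called lower (-0.77 log2, adjusted p = 0.0162), which ended without untreated library 3 (0.0678), 0.5 h library 2 (0.0586) or 3 (0.0745). In the TCA cycle list CIT2, the peroxisomal citrate synthase, went from 66.5, 86.5 and 46.3 CPM to 163, 192 and 196 CPM (1.47 log2, adjusted p = 6.37e-05), with 3 of 15 genes higher, or 1 without untreated library 3 and 1 without 0.5 h library 2. Of 31 nuclear genes of the respiratory chain none passed in the 15-library edgeR fit or with DESeq2, with 29 positive, a median of 0.22 and 5 higher at an unadjusted p under 0.05. With the 6 libraries alone edgeR called 3 of them higher, and without both 3 h groups 7.

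**Figure D3:**
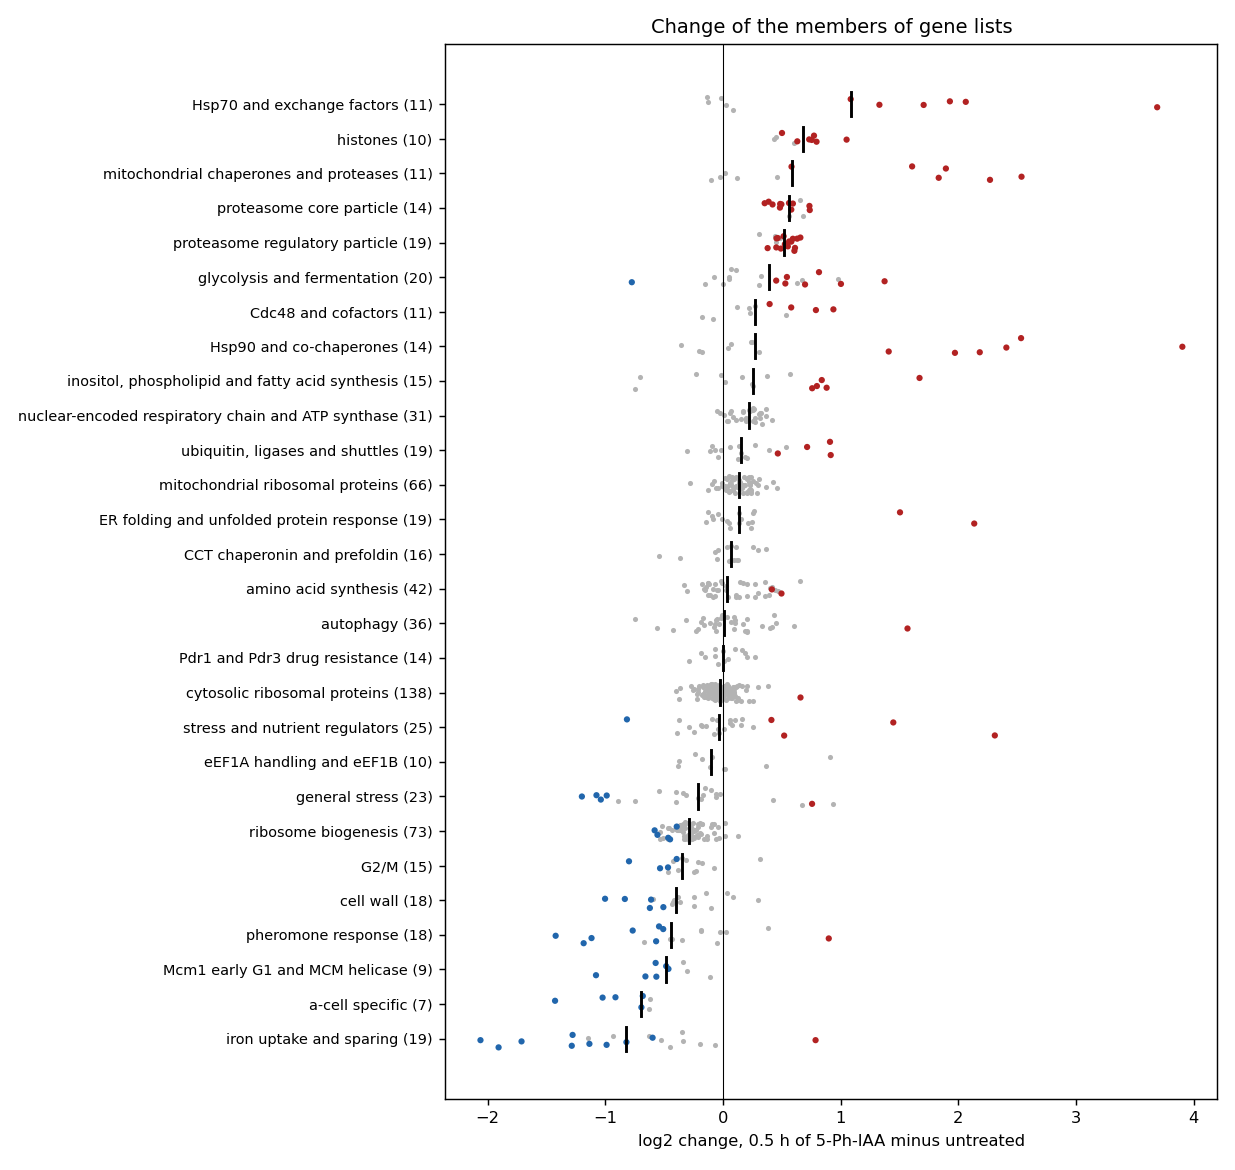
Log2 change at 0.5 h against untreated (horizontal) of each tested member of 28 gene lists, ordered by median, with the number tested in brackets. Black bars are medians, red and blue points passed as higher and lower, and grey points did not pass. Chaperone members spread widest to the right, proteasome members form a tight group right of 0, and iron uptake has the lowest median.

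Iron uptake held the largest falls. FET3 (YMR058W, chromosome XIII, 388822 to 390732), the multicopper oxidase of high-affinity uptake, had 278, 302 and 380.3 CPM untreated and 43.9, 51.2 and 138 CPM at 0.5 h, a change of -2.06 log2 (SE 0.39, adjusted p = 0.00406). FTR1, the permease that works with FET3, went from 370.4, 403 and 441 CPM to 144, 130.2 and 228 CPM (-1.28 log2, adjusted p = 0.00157). SIT1, a transporter of iron bound to siderophores, went from 135, 114 and 133 CPM to 19.5, 22.4 and 62.3 CPM (-1.91 log2, adjusted p = 0.00803), and that call ended without 0.5 h library 2 (adjusted p = 0.0591). In all 3 genes every library at 0.5 h was below every untreated one, and 0.5 h library 3 was the highest of its group. That library was also the shallowest and had the highest mitochondrial share, and the part of these in the result was not tested. ENB1, the enterobactin transporter, fell by 1.29 log2 (adjusted p = 0.000457), and FIT2, a cell wall protein that holds siderophore iron, fell by 1.71 log2 (adjusted p = 0.0043). Of the 19 genes of the list, 18 were negative, 9 fell and 1 rose, with a median of -0.82, while 2.78% of all genes were lower. The list took 0.208%, 0.186% and 0.205% of the counts untreated and 0.0921%, 0.0916% and 0.119% at 0.5 h. CTH1, which with TIS11 destroys mRNAs of iron-using proteins, rose (0.79 log2, adjusted p = 0.00569), whereas TIS11 stood at -0.94 and did not pass (adjusted p = 0.0642). FRE4, an iron reductase, was called lower (-1.14 log2, adjusted p = 0.00716), but not without untreated library 3 (0.0504) or 0.5 h library 2 (0.0541). The reductase FRE1, at -1.15, did not pass either (adjusted p = 0.18). The falls numbered 7, 9 and 5 on leaving out untreated library 1, 2 or 3, and 6, 4 and 8 on leaving out 0.5 h library 1, 2 or 3.

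The letters TGCACCC, the core of the Aft1 site, stood on either strand in 77 of 5988 promoters (1.29%), in 9 of 168 lower (5.36%), in 4 of 204 higher (1.96%) and in 6 of the 14 largest falls with a promoter. Of the 9 tested carriers in the iron list 4 fell. Among the 64 tested carriers outside it 5 fell and 4 rose, with a median of -0.06. Outside the list the carriers that fell included VMR1, a vacuolar transporter (-1.26 log2, adjusted p = 0.00397), and WSC4 (-1.54 log2, adjusted p = 0.00927), whose call ended without untreated library 3 (0.0738) or 0.5 h library 2 (0.0501). The windows that follow carry the site in capitals upstream of 4 iron genes.
SIT1 (chrV:27442-27501, plus strand): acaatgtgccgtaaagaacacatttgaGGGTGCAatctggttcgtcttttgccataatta
FIT2 (chrXV:1059373-1059432, plus strand): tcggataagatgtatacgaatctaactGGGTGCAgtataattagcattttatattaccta
ENB1 (chrXV:21416-21475, minus strand): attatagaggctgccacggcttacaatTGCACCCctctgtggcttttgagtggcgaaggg
FTR1 (chrV:461883-461942, minus strand): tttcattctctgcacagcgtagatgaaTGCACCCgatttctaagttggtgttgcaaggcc

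Several mating genes fell, where 2.78% of all genes were lower. The libraries expressed the genes of the a mating type, with STE2, the receptor for alpha factor, at 841, 914 and 840.4 CPM untreated and STE3, the receptor of the other type, at 3.23, 4.48 and 2.79 CPM. STE2 stood at 529.9, 596 and 492 CPM after 0.5 h (-0.68 log2, adjusted p = 0.00669). BAR1 (YIL015W, chromosome IX, 322342 to 324105), the protease that degrades alpha factor, went from 268, 268 and 254 CPM to 103, 106 and 84.3 CPM, a change of -1.43 log2 (SE 0.16, adjusted p = 3.35e-05). The groups did not overlap in either gene. Of 7 a-specific genes 5 fell and all 7 were negative, the others being AGA2, the binding subunit of agglutinin (-1.02 log2, adjusted p = 0.000204), STE6, the exporter of a factor (-0.69 log2, adjusted p = 0.00495), and ASG7 (-0.91 log2, adjusted p = 0.0064). The a-factor genes MFA1 (-0.63) and MFA2 (-0.62) did not pass. Leaving out any 1 library left 5 or 6.

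In the pheromone response list 7 of 18 genes fell and 1 rose, with a median of -0.44, beside 2.78% of all genes lower and 3.36% higher. AGA1, the anchor of agglutinin, went from 49.4, 51.5 and 60.6 CPM to 18, 20.3 and 22.2 CPM (-1.42 log2, adjusted p = 7.46e-06), and FAR1, which arrests the cycle in response to pheromone, from 169.9, 139.7 and 186 CPM to 75.2, 73.1 and 69.8 CPM (-1.18 log2, adjusted p = 1.06e-05). FUS1, which acts in cell fusion, went from 16.7, 14.6 and 16.6 CPM to 6.38, 7.99 and 7.8 CPM (-1.12 log2, adjusted p = 0.00118). These 3 genes were lower in every library at 0.5 h. SST2, which turns the G protein off, fell by 0.77 log2 (adjusted p = 0.000165). STE12, the transcription factor, was called lower (-0.54 log2, adjusted p = 0.012), a call that ended without untreated library 1 (0.0693) or 3 (0.0718) or 0.5 h library 1 (0.0547), 2 (0.0524) or 3 (0.0601). The kinesin gene KAR3 rose (0.90 log2, adjusted p = 0.00219). The falls numbered 6, 5 and 5 on leaving out untreated library 1, 2 or 3, and 4, 4 and 5 on leaving out 0.5 h library 1, 2 or 3. The pheromone response element TGAAACA, on either strand, stood in 7.52% of all promoters, 11.3% of the lower and 4.9% of the higher ones. Of 16 tested carriers in the mating lists 8 fell, and of 403 outside them 11 fell and 10 rose. The windows of 3 genes are given with the element in capitals.
BAR1 (chrIX:322131-322190, plus strand): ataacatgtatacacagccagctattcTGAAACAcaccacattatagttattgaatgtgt
AGA1 (chrXIV:703470-703529, plus strand): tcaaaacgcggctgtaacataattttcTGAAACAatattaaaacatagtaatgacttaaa
FUS1 (chrIII:71603-71662, plus strand): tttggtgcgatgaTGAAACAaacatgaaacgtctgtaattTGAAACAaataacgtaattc

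Cell-cycle genes moved in both directions. Of 9 genes of the Mcm1 early G1 list, which license replication origins or start the cycle, 6 fell and all 9 were negative. Over all genes 2.78% were lower. MCM7, a subunit of the replicative helicase, went from 142, 134 and 144 CPM to 103, 101 and 96.4 CPM (-0.48 log2, adjusted p = 0.00595), and CLN3, the first G1 cyclin, fell by 0.57 log2 (adjusted p = 0.00284). MCM2 (-0.57 log2, adjusted p = 0.00216), MCM3 (-0.66 log2, adjusted p = 0.00389) and MCM6 (-0.46 log2, adjusted p = 0.00634) fell too. The falls in this list numbered 5, 6 and 5 on leaving out untreated library 1, 2 or 3, and 6, 5 and 5 on leaving out 0.5 h library 1, 2 or 3. Of 15 G2/M genes 4 fell, led by the kinase KIN3 (-0.80 log2, adjusted p = 0.00238), with 2 in the fit of the 6 libraries alone and 1, 4 and 1 on leaving out untreated library 1, 2 or 3, and 4, 1 and 1 on leaving out 0.5 h library 1, 2 or 3. Of 23 genes of G1/S and replication 2 passed as lower, and 4 with DESeq2, but 1 without untreated library 2 or 3 and none without 0.5 h library 1 or 2.

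Histone genes rose, in contrast. Of 10 histone genes 7 rose and all 10 were positive, with a median of 0.68, against 3.36% of all genes higher. HTA2, of histone H2A, went from 445, 488 and 461 CPM to 819.6, 774 and 826 CPM (0.80 log2, adjusted p = 0.00118), and HHT2, of H3, rose by 0.75 log2 (adjusted p = 0.000457). HHF2, of H4, rose by 0.77 log2 (adjusted p = 0.00265). The rises numbered 4, 7 and 4 on leaving out untreated library 1, 2 or 3, and 6, 4 and 4 on leaving out 0.5 h library 1, 2 or 3. They numbered 8 with DESeq2 and 9 with the 6 libraries alone. Of the 10 genes, 2 have a near-identical copy.

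Of 18 cell wall genes 5 fell, against 2.78% of all genes. PST1, a wall protein of the integrity pathway, went from 262, 328 and 244 CPM to 152, 152 and 112 CPM (-1.0 log2, adjusted p = 0.00565). HSP150 fell by 0.62 log2 (adjusted p = 0.00655) and CHS3, the main chitin synthase, fell by 0.61 log2 (adjusted p = 0.00927). The falls numbered 8 in the fit of the 6 libraries alone and 5, 3 and 3 on leaving out untreated library 1, 2 or 3, and 3, 3 and 3 on leaving out 0.5 h library 1, 2 or 3. Of 10 zinc genes 2 were called lower, and none without any 1 of the 6 libraries. Of 16 purine genes 3 fell, with 15 negative, but 1 without untreated library 2 or 0.5 h library 2 or 3, and 5 with DESeq2, with total counts or in the fit of the 6 libraries alone.

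**Figure D4:**
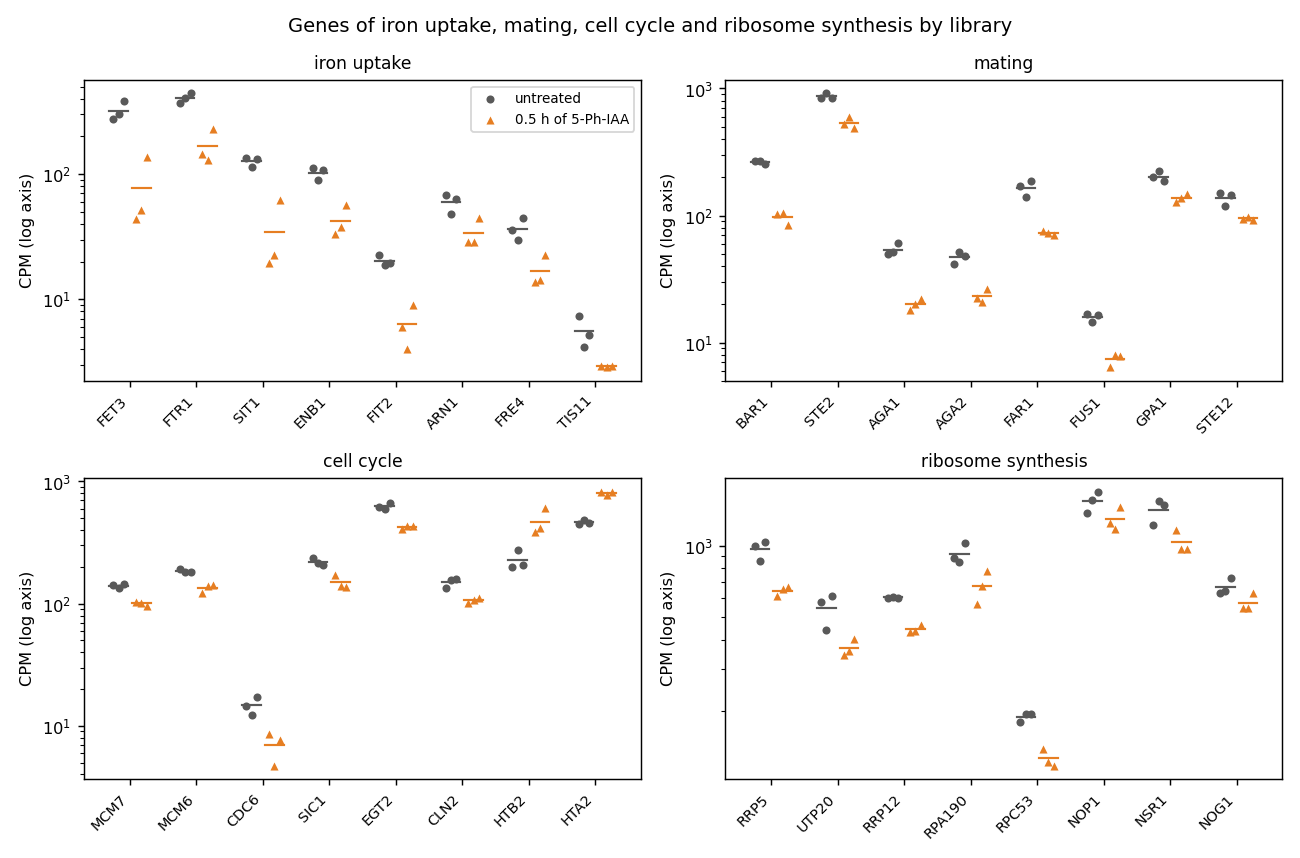
CPM (log axis) of genes of iron uptake, mating, cell cycle and ribosome synthesis in the 3 untreated libraries (circles) and the 3 libraries at 0.5 h (triangles), with lines at the group means. The mating groups are apart in all 8 genes shown, 0.5 h library 3 is the highest of its group in 7 of the 8 iron genes, and the histone genes HTB2 and HTA2 go the other way.

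Outside all 55 lists, 202 of the called genes remained. YNR068C and BSC5, neighbouring genes of unknown function, were among the 15 largest rises. YNR068C went from 8.15, 6.49 and 7.32 CPM to 39.8, 49.4 and 56.3 CPM (2.72 log2, adjusted p = 4.46e-08), and BSC5 from 7.89, 8.73 and 8.59 CPM to 28, 53.3 and 47.6 CPM (2.35 log2, adjusted p = 2.07e-06). Both were higher in every library at 0.5 h. IRT1, a non-coding RNA upstream of the meiosis regulator IME1, went from 16.7, 24.1 and 27.5 CPM to 7.2, 10 and 12.1 CPM (-1.24 log2, adjusted p = 0.00317), and SHC1, an activator of chitin synthase in sporulation, from 32.2, 32.9 and 33.8 CPM to 16, 15.9 and 13.3 CPM (-1.12 log2, adjusted p = 0.000851). The calls of TDA6 and IZH4, 2 of the largest falls, ended on leaving out any 1 of several libraries, and those of SIT1 and WSC4 above had also ended on leaving out 1 library. TDA6 (-1.19 log2, adjusted p = 0.0116) did not pass without untreated library 2 (0.0548) or 3 (0.076) or 0.5 h library 1 (0.0794) or 3 (0.0511), and IZH4 (-1.18 log2, adjusted p = 0.0106) not without untreated library 3 (0.0599) or 0.5 h library 2 (0.0501) or 3 (0.0538).

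The change at 0.5 h was set beside the later and the solvent groups, which share the 0.5 h libraries with it. From 0.5 h to 1.5 h few genes moved, 56 higher (0.923%) and 13 lower (0.214%). The 13 included BTN2, at 1059 ± 131 CPM (mean and SD, n = 3) at 0.5 h and 538 ± 7.19 at 1.5 h (-0.98 log2, adjusted p = 0.0368). SSA1 went from 4366 ± 292 to 2729 ± 89.1 CPM (-0.68 log2, adjusted p = 0.0065), CPR6 from 826 ± 57.5 to 528 ± 24.2 CPM (-0.65 log2, adjusted p = 0.0367) and RPN4 from 322 ± 4.66 to 213 ± 16.6 CPM (-0.59 log2, adjusted p = 0.0413). These 4 genes were lower at 1.5 h but still above their untreated means. HSP104, at 1096 ± 103 and 1156 ± 78.5 CPM, did not pass between the times (0.08 log2, adjusted p = 0.912). The 5 chaperone lists took 3.62% to 3.73% of counts at 1.5 h and 2.51% to 3.04% at 3 h.

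Against DMSO at 3 h, 917 genes were higher (15.1%) and 927 lower (15.3%) at 0.5 h, a contrast in which the time of culture differs too. The chaperone lists took 1.69% to 2% of counts in DMSO. SSA1 had 586 ± 39.2 CPM in DMSO and was higher at 0.5 h (2.90 log2, adjusted p = 3.77e-10), as was BTN2, with 129 ± 44.2 CPM in DMSO (3.04 log2, adjusted p = 2.01e-07). HSP104, with 796 ± 64.2 CPM in DMSO, did not pass (0.46 log2, adjusted p = 0.0525), and neither did HSP42 (0.52 log2, adjusted p = 0.193). Of the genes that fell, FET3 had 85.8 ± 7.83 CPM in DMSO and 77.6 ± 52.3 at 0.5 h (-0.16 log2, adjusted p = 0.785), and AGA1 19.7 ± 0.918 and 20.2 ± 2.08 CPM (0.03 log2, adjusted p = 0.909). For FET3 and AGA1 the mean levels at 0.5 h and in DMSO at 3 h differed by less than the SD at 0.5 h. For FET3 that SD was wide, with 0.5 h library 3 well above the other libraries of its group. In each comparison's own terms, the proteasome core list held 13 genes higher at 0.5 h than in DMSO, the iron list 1 higher and 3 lower, and the phospholipid list none higher and 11 lower. The glycolysis list held 2 higher and 7 lower, the TCA cycle list none higher and 8 lower, and the a-specific list 1 higher and 2 lower. The iron list took 0.111% to 0.12% of counts in DMSO, beside 0.0916% to 0.119% at 0.5 h and 0.186% to 0.208% untreated. CHO2, at 639.9 ± 113 CPM in DMSO and 494 ± 20.7 at 0.5 h, did not pass (-0.37 log2, adjusted p = 0.0885), while SAM2 was lower at 0.5 h (-1.08 log2, adjusted p = 0.0148). Of the 73 ribosome biogenesis genes, 56 were higher at 0.5 h than in DMSO at 3 h.

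**Figure D5:**
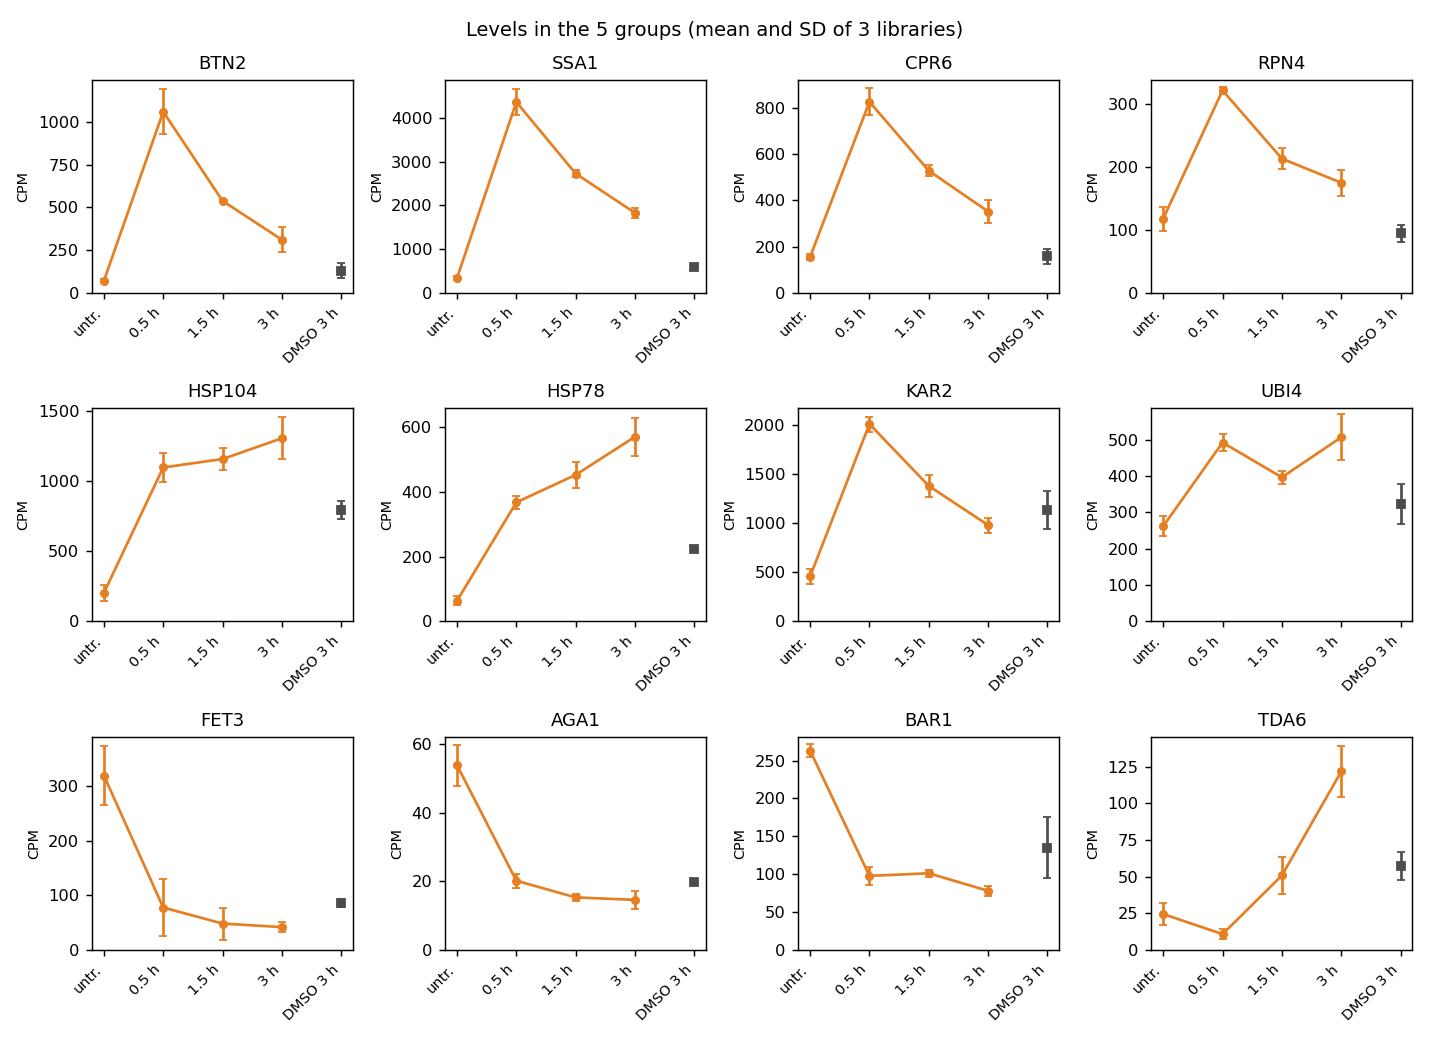
Mean CPM with SD of 3 libraries for 12 genes in untreated cells, at 0.5 h, 1.5 h and 3 h of 5-Ph-IAA (orange, joined, unevenly spaced in time) and at 3 h of DMSO (grey). BTN2, SSA1, CPR6 and RPN4 peak at 0.5 h, HSP104 does not come down after 0.5 h, and FET3 and AGA1 in DMSO are near their level at 0.5 h.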

How the data were processed

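The authors deposited 1 table of whole-number counts of reads per gene, with a column for each of the 15 libraries and none of other samples. FastQC 0.11.5, STAR 2.7.0, DESeq2 1.34.0 and build R64 are named, per the submitters' processing notes. The counting step, its use of strand and its treatment of reads that match several genes are, in the sources used here, not given. Of 7127 gene IDs, 6047 matched RefSeq R64 by their locus tags and 125 by a symbol or synonym. BLAST 2.17.0 found 352 genes with a copy at least 95% identical over at least 50% of the length, and 323 overlap another gene, so their counts are less certain.

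Counts were fitted with edgeR 4.0.16 (limma 3.58.1, R 4.3.3) by its quasi-likelihood test with TMM scaling, filterByExpr and 1 mean for each of the 5 groups, over all 15 libraries, with two-sided p-values and Benjamini-Hochberg adjustment at 0.05 over 6069 genes. DESeq2 1.42.0, other scalings, filters, sets of libraries and a block were alternatives. Scripts were tested on simulated data. The common biological coefficient of variation was 17% over the 15 libraries and 12.4% over the 6. The untreated libraries and those at 0.5 h share replicate numbers, but the deviations of same-numbered libraries correlated at 0.0476, 0.021 and 0.00882, so the libraries were not paired. Tables and plots used Python 3.11.15 and matplotlib 3.10.9.

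The comparison and the gene lists were chosen with earlier results of these data known. Named genes are ZPR1, TEF1 and TEF2, the 15 largest rises and 15 largest falls among called genes with at least 10 CPM and no overlap, the regulators, and from each list up to 6 called members by adjusted p and up to 3 others by level, or all members of lists of up to 12. Carriers of a promoter element outside these lists, and a few list members outside the rule (PGK1, TIS11 and IRE1), were named after their values were seen. Some results are not reported here.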

Additional observations from a re-analysis of the deposited data

Results flagged for a closer look

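Of the 30 largest changes at 0.5 h, 5 differed again between 0.5 h and 1.5 h in the direction opposite to their first change, by edgeR's quasi-likelihood test of that difference. These comparisons share the 0.5 h libraries, so a library that is extreme at 0.5 h moves both. Among the 15 largest rises, BTN2 changed by -0.98 log2 from 0.5 h to 1.5 h, SSA1 by -0.68 and CPR6 by -0.65. Among the 15 largest falls, TDA6 changed by 2.24 log2 and IZH4 by 1.42. TDA6 had 15.7, 28.3 and 29.3 CPM untreated, 7.68, 14.2 and 10.2 CPM at 0.5 h and 50.8 ± 12.6 CPM (mean and SD, n = 3) at 1.5 h. IZH4, a membrane protein gene that responds to zinc, had 18.9, 17.5 and 21.7 CPM untreated, 11, 8.72 and 5.51 CPM at 0.5 h and 23 ± 7.54 CPM at 1.5 h.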

How the results depend on the processing

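The count of 373 changed genes (204 higher, 169 lower) became 568 (327 higher) in the fit of the 6 compared libraries alone and 707 (401 and 306) without both 3 h groups. DESeq2 called 263 genes lower. A log2 change of at least 1 left 83 (57 and 26). Leaving out 1 library gave 178 to 274 changed, 118 to 156 higher and 60 to 118 lower. With the replicate block, 748 genes passed in the 6 libraries (415 higher, 333 lower) and 407 in all 15. Correlations of deviations showed no pairing by replicate number, and the labels do not say what the numbers mark. These counts are therefore not read as stronger or weaker effects. RLE size factors (368), robust estimation (389), no filter (350) and a floor of 10 CPM on the mean (371) moved the count by less than 1.5 times. Of 421 named genes, 158 passed and 89 passed on leaving out any 1 library. None of the named genes reversed under any alternative. Depth of 6985793 to 16599457 counts limits the genes at a few CPM. The cause of these differences was not tested.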

Other observations

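A list of 59 genes of the kinetochore, spindle pole and spindle motors, which attach and move chromosomes, was written after the values were seen and was given no test. Of these 11 rose and none fell with edgeR's quasi-likelihood test, beside 3.36% of all genes higher and 2.78% lower. Of the 59, 50 were positive, and the median change was 0.17 log2, beside -0.03 over all genes. These counts partly reflect the choice of the list. SPC105, a kinetochore scaffold, went from 28.1, 31.3 and 21.9 CPM untreated to 45.6, 53.6 and 56 CPM at 0.5 h (0.93 log2, adjusted p = 0.00389). STU2, which binds microtubule ends, went from 37.5, 46.1 and 38.7 CPM to 59.4, 62.5 and 71.8 CPM (0.66 log2, adjusted p = 0.0204), but did not pass without untreated library 1 (0.0956) or 3 (0.0928) or 0.5 h library 2 (0.0609) or 3 (0.0879). KIP1, a spindle motor, was called higher (0.71 log2, adjusted p = 0.0188), but not without untreated library 1 (0.0527) or 2 (0.0813) or 0.5 h library 2 (0.0501) or 3 (0.101). DAM1, which couples kinetochores to microtubules, was called higher (0.45 log2, adjusted p = 0.0411), but not with total counts (0.102), with no filter (0.0508), or without untreated library 1 (0.168), 2 (0.0503) or 3 (0.123) or 0.5 h library 1 (0.0851), 2 (0.0847) or 3 (0.156), all adjusted p.

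Some called genes outside the lists were chosen here after their values were seen. ROQ1, which redirects a ubiquitin ligase to misfolded proteins, went from 15.8, 22.8 and 11.4 CPM to 52.7, 56.8 and 60.3 CPM (1.76 log2, adjusted p = 0.000557). ADR1, an activator of genes for growth without glucose, went from 18.8, 16.9 and 20.2 CPM to 50.3, 62 and 68.4 CPM (1.69 log2, adjusted p = 6.37e-05). OPI10 went from 18.8, 25 and 18.4 CPM to 54.4, 68.8 and 66.5 CPM (1.61 log2, adjusted p = 5.48e-05). Each was higher in every library at 0.5 h. TEC1, the partner of STE12 in filamentous growth, fell by 0.90 log2 (adjusted p = 0.000168), and MSA1, an activator at the start of the cell cycle, fell by 1.08 log2 (adjusted p = 0.000821).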
